A study of Mus musculus with 6 samples.

Results

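The genes described here encode the proteasome, its regulators and its assembly factors. They are the mouse protein-coding genes whose symbols begin with Psma, Psmb, Psmc, Psmd, Psme or Psmg followed by a number, 49 of the 43432 genes in the table of normalized counts, and the rule that picks them uses symbols alone. Of the 49 genes, 47 had a mean of at least 10 normalized counts over the 6 libraries and were tested. The other 2 were Psmb11, the catalytic subunit of the thymus, which had 0 reads in all 6 libraries, and Psma8, the testis alpha subunit, which had 3.07, 6.90 and 0 normalized counts in one group and 2.37, 0 and 4.50 in the other. With 3 reads taken as the most that a count of 0 allows, the limit for Psmb11 was 2.37 to 3.56 normalized counts per library, for counting error only. Psmc3ip carries the prefix but encodes a partner of meiotic recombination proteins and is no part of the proteasome, so it is described apart.

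RNA was sequenced from spleen cells sorted for CD11b, a gate that holds neutrophils, monocytes, macrophages and some dendritic cells, from 6 mice. All 6 were Rag1 KO on the C57BL/6J background, a strain that lacks mature T and B cells of its own. Each had received unmanipulated 2D2 CD4+ T cells, which bear a T cell receptor against myelin oligodendrocyte glycoprotein (MOG), and B cells grown in iGB culture and loaded with MOG, and was taken on day 8 after transfer. In the WT iGB6 group these were wild type B cells transduced with a pMSCV vector that encodes Il6 and eGFP. In the IgHMOG iGBGFP group they were IgHMOG B cells, which bear a MOG-specific immunoglobulin heavy chain, with the empty vector. The B cell genotype and the Il6 vector therefore changed together, and their contributions cannot be told apart. Each group had 3 mice, of which replicate 1 was female and replicates 2 and 3 were male. No source used here gives the ages of the mice.

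The proteasome degrades proteins that carry ubiquitin chains. Its regulatory particle, named 19S, binds and unfolds the substrate: a ring of ATPases in the base pulls the chain in, and the lid removes the ubiquitin. Its core particle, named 20S, is a barrel in which alpha subunits form the gated outer rings and beta subunits the inner rings, and Psmb5, Psmb6 and Psmb7 carry the active sites. In cells exposed to interferon-gamma, and in many immune cells at rest, newly built cores take up Psmb8, Psmb9 and Psmb10 instead, which gives the immunoproteasome. Its peptides are well suited to presentation on MHC class I.

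The 49 genes lie on 16 chromosomes, with 10 on chromosome 11. In 15 of them exons overlap those of another annotated gene. A window of 300 bases around the transcription start, from 250 bases before it to 50 from the start on, was found in RefSeq for 41 of the 49 genes (build GRCm38.p6). The promoters of 4 genes on which the results turn are printed, 5′ to 3′ on the strand of the gene and up to 30 bases from the start: Psmd14, the lid subunit that rose, the constitutive catalytic subunit Psmb5, the subunit Psmb8 that takes its place, and Psmb9, which shares its neighbourhood with Psmb8. Capitals mark matches to 4 searched motifs, each sought on both strands: TGACNNNGC, the core of the antioxidant response element bound by the proteasome regulators Nfe2l1 and Nfe2l2, CCAAT, the core of the interferon-stimulated response element (GAAA, any 2 bases and GAAA again), and the core TTCNNNGAA of the gamma-activated site. The windows are chr2:61711444-61711723 (plus strand) for Psmd14, chr14:54617966-54618245 (minus strand) for Psmb5, chr17:34197945-34198224 (plus strand) for Psmb8 and chr17:34187301-34187580 (minus strand) for Psmb9.
Psmd14: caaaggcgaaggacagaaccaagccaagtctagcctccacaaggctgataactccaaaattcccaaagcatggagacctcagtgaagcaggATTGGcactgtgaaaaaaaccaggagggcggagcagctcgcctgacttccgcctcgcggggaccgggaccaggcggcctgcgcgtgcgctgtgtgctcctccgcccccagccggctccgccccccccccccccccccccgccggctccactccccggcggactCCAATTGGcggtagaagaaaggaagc
Psmb5: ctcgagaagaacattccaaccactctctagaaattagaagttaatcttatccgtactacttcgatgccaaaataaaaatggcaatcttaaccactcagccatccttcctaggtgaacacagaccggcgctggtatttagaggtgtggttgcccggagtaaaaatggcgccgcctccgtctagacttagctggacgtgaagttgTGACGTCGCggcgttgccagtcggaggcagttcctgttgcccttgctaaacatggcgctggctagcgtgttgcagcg
Psmb8: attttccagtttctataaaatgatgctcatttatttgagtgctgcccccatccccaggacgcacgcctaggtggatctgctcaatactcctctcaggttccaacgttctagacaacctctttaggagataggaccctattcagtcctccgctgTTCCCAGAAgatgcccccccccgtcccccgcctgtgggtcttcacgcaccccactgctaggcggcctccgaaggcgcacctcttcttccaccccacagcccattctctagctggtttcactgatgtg
Psmb9: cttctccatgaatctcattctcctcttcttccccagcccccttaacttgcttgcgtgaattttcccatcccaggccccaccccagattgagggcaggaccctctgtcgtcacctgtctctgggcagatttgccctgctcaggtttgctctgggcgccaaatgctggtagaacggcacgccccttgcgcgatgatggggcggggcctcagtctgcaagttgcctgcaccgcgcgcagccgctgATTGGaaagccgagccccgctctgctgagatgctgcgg
The Psmd14 window holds ATTGG, the reverse of CCAAT, 159 bases before the start, and CCAAT and ATTGG overlapping in one run of capitals that begins 5 bases into the transcript. Psmb5 holds TGACGTCGC 47 bases before the start, Psmb8 holds TTCCCAGAA 97 bases before it, and Psmb9 holds ATTGG 8 bases before it. The RefSeq starts used for Psmb8 and Psmb9 lie inside the gene as GENCODE M21 draws it.

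The share of promoters with each motif was set beside that of all genes. TGACNNNGC was found in 6 of 41 genes (14.6%; Psmb5, Psmb6, Psmc6, Psmd12, Psmd9 and Psme4), against 14.0% of 27025 genes with a window of the same length. CCAAT was found in 15 of 41 (36.6%), against 41.1%. TTCNNNGAA was found in 3 of 41 (7.32%; Psmb8, Psmd2 and Psmg1), against 9.55%. The interferon-stimulated core was found in 5 of 41 (12.2%; Psmb3, Psmd4, Psmd9, Psme1 and Psmg4), against 3.99%. These are matches of letters, counted without a test.

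Total reads ranged from 5196339 to 7564254 per library, and the summed counts of the 49 genes made up 0.414% to 0.541% of normalized counts. Over all 9923 genes tested, 273 were higher and 334 lower in WT iGB6 at an adjusted p below 0.05 (limma, Benjamini-Hochberg), and the median log2 fold change was 0.02. Fold changes are WT iGB6 over IgHMOG iGBGFP on the scale log2(normalized count + 1), with their standard error (SE). RNA of markers of some cell types differed between groups. Of 7 neutrophil precursor markers, 7 rose (summed level 2060 to 5323 normalized counts in IgHMOG iGBGFP and 10231 to 25887 in WT iGB6), as did 6 of 8 cell division genes (2050 to 3049 and 3901 to 7360). Of 6 dendritic markers tested 5 fell, while the sum of all 8 listed overlapped (1394 to 5605 and 472 to 1422). Of 6 basophil markers 4 fell (1801 to 7391 and 460 to 1683). The sums of the mature neutrophil, monocyte, macrophage and NK cell markers overlapped between groups. Of these, 1 of 6 mature neutrophil and 1 of 5 monocyte markers fell, and 1 of 6 macrophage and 1 of 4 NK cell markers rose. None of these markers was at 0 in all libraries. The 4 genes of the CD11b gate (Itgam, Itgb2, Ptprc and Lyz2) summed to 185900 to 245207 and 225936 to 346971, with 0 of 4 called by limma (1 of 4, Itgam, at an unadjusted p below 0.05), and the 5 T cell markers to at most 229. In bulk RNA, fewer cells of a type and less RNA per cell cannot be told apart.

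Among the 47 genes tested, 2 rose and 0 fell in WT iGB6 (limma, adjusted p below 0.05): Psmd14 and Psmc3ip. That is 4.26% of the genes, against 6.12% of all genes tested in either direction and 2.75% in the higher and 3.37% in the lower direction. The shift as a whole was small and mostly upward: 35 of 47 had a positive log2 fold change, with a median of 0.19 against 0.02 for all genes. In 19 of 47 (40.4%) the 3 WT iGB6 libraries all lay above the 3 IgHMOG iGBGFP libraries, against 12.2% of all genes tested, and in 0 of 47 they all lay below, against 11.4%. With TMM scaling those shares of all genes were 10.8% and 12.4%, 18 of the 47 lay above, and 1, Psme4, lay below. At an unadjusted p below 0.05, 11 were higher (23.4%, against 12.3%) and 0 lower. In 42 of 47 genes the 95% confidence interval of the log2 fold change lay within 1 unit of 0. The same 2 genes were called by edgeR, by DESeq2 and in the authors' deposited table, where 6.11%, 9.58% and 8.18% of all genes were called. Neither was called with the sex term left out, in the males alone, or when replicate 1, 2 or 3 of IgHMOG iGBGFP or replicate 1 of WT iGB6 was left out. Without WT iGB6 replicate 3 Psmd14 alone was called, and without WT iGB6 replicate 2 a further gene, Psmd5, was called.

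**Figure D1:**
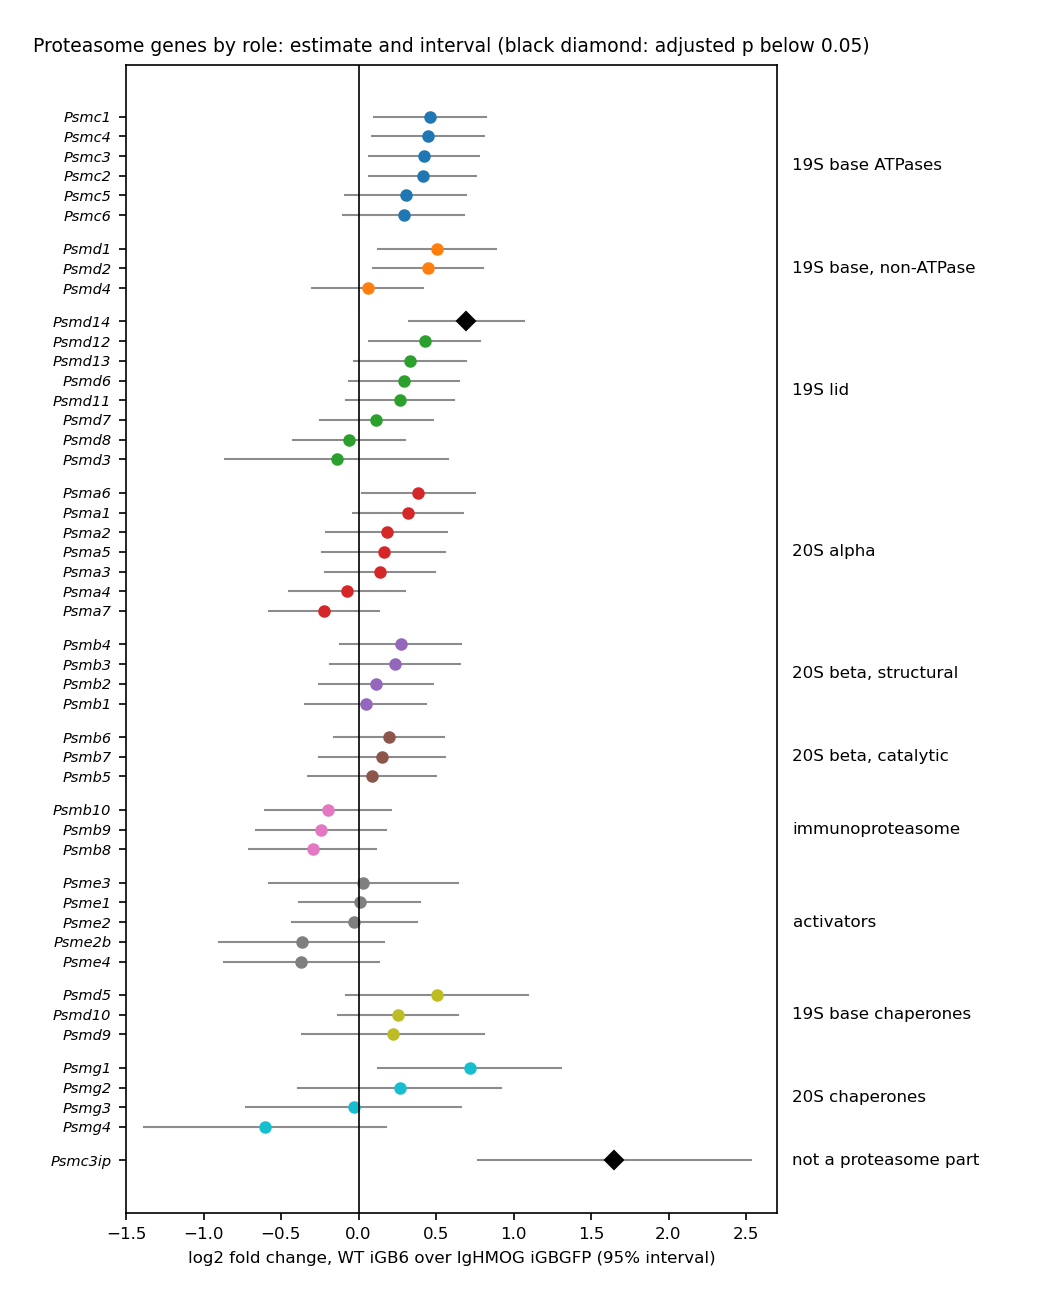
Log2 fold change of the 47 tested genes (x axis, WT iGB6 over IgHMOG iGBGFP on the log2(normalized count + 1) scale, with 95% confidence intervals), grouped by role. Regulatory particle genes sit mostly right of 0 with a median of 0.33, the 3 immunoproteasome genes sit left of 0, and the 2 genes marked as called are Psmd14 and Psmc3ip.

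Most genes of the regulatory particle were higher in every WT iGB6 library. Of its 17 genes under the searched prefixes, 1 rose and 0 fell, 15 had a positive log2 fold change, and the median was 0.33. In 13 (76.5%) the groups did not overlap, with WT iGB6 higher, against 12.2% of all genes tested (12 with TMM scaling, against 10.8%). The 17 genes summed to 11869, 11363 and 11618 normalized counts in IgHMOG iGBGFP replicates 1, 2 and 3. In WT iGB6 replicates 1, 2 and 3 the sums were 15215, 14389 and 14593. The 3 WT iGB6 libraries all lay above the 3 IgHMOG iGBGFP libraries, with a ratio of means of 1.27. Adrm1 and Sem1 are further subunits of the particle without these prefixes and are not in the sum. Adrm1 had a log2 fold change of 0.25 without overlap (limma adjusted p = 0.398), and Sem1 one of -0.04 with overlap (limma adjusted p = 0.930). Neutrophil precursor and cell division markers moved in the same direction, with the ranges given above, and their part in this shift was not tested.

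**Figure D2:**
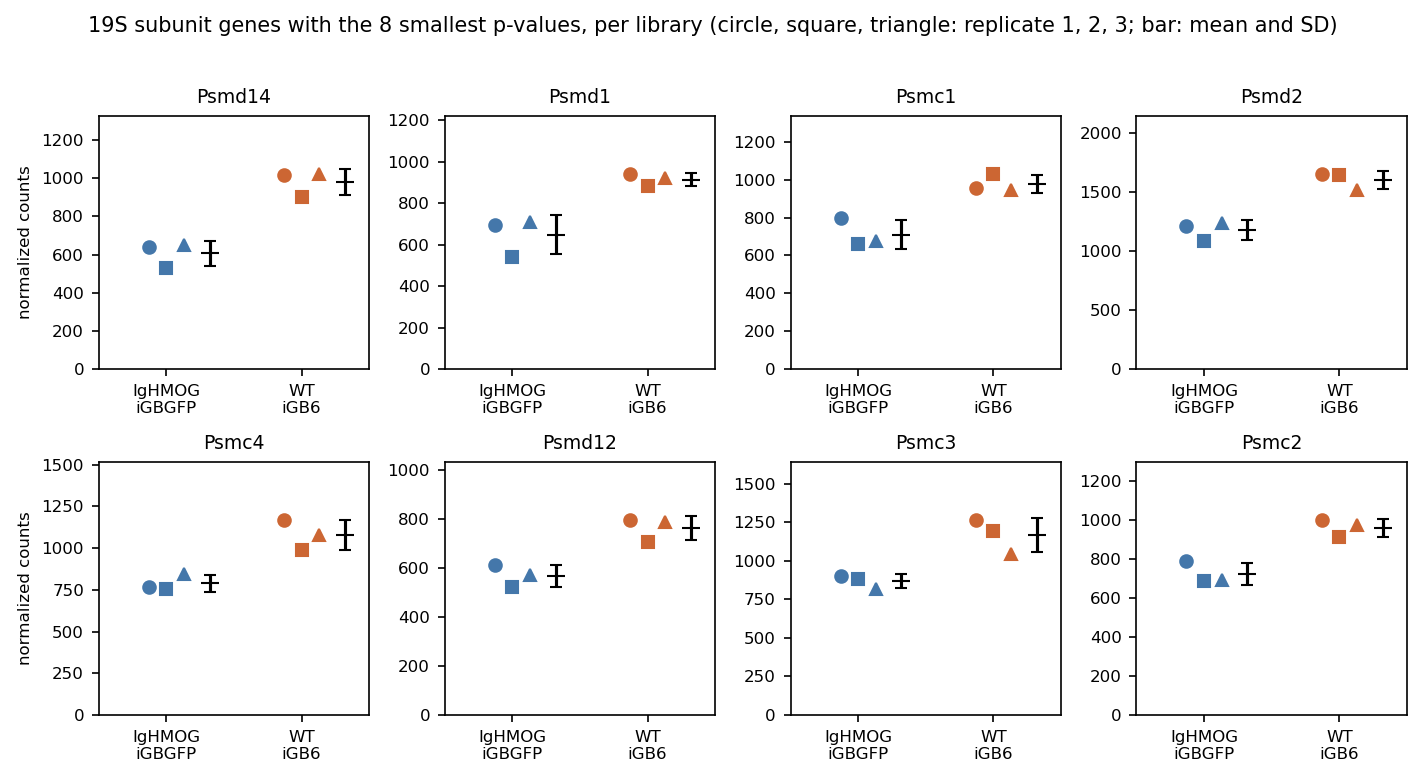
Normalized counts (y axis, from 0) of the 8 regulatory particle genes with the smallest p, in each of the 6 libraries by group (circle, square and triangle stand for replicates 1, 2 and 3, the bar for the mean and SD). In all 8 genes every WT iGB6 point lies above every IgHMOG iGBGFP point, with Psmd14 at 531 to 648 against 903 to 1021. The 8 were picked by p in these same libraries, which favours such separation, and 13 of the 17 genes had it.

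Psmd14 encodes the lid's deubiquitinase, which cuts the ubiquitin chain from the substrate as it enters. It lies on chromosome 2 from 61711694 to 61800376 (ENSMUSG00000026914), behind the first promoter printed above. Its normalized counts were 642, 531 and 648 in IgHMOG iGBGFP and 1019, 903 and 1021 in WT iGB6. Replicate 2 was the lowest library in both groups, and the groups did not overlap. The means were 607 ± 65.8 and 981 ± 67.5 (SD, n = 3 each), a log2 fold change of 0.69 (SE 0.17, limma adjusted p = 0.0405, 95% interval 0.32 to 1.07). The adjusted p was 0.0482 with edgeR and 0.0206 with DESeq2, and the authors' deposited table gives 0.0145. With 1 library left out at a time the log2 fold change ranged from 0.61 to 0.77, and the adjusted p rose to as much as 0.189.

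The other 7 lid genes were not called. Psmd13, the most abundant lid gene, had 811, 940 and 803 normalized counts in IgHMOG iGBGFP and 1091, 1082 and 1036 in WT iGB6. The groups did not overlap, and the log2 fold change was 0.33 (SE 0.16, limma adjusted p = 0.237). Psmd12 had a log2 fold change of 0.43 (limma adjusted p = 0.138), while Psmd6, Psmd7 and Psmd11 lay between 0.11 and 0.30, all 4 without overlap. Psmd8 (log2 fold change -0.06) and Psmd3 (-0.14) had overlapping groups. Psmd12, Psmd6, Psmd7, Psmd11, Psmd8 and Psmd3 are named here after their values were seen.

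Psmd3, a scaffold subunit of the lid, had far fewer counts than its partners, although each lid holds its subunits in equal number. It averaged 33.5 ± 5.41 normalized counts in the IgHMOG iGBGFP libraries and 31.7 ± 13.7 in those of WT iGB6 (SD, n = 3 each). Per kilobase of exon its mean over the 6 libraries was 6.57 normalized counts, against 122 to 284 for the other 7 lid genes. Its exons overlap those of Gm12356, an annotated transcript that is itself listed at 0 in all 6 libraries. Whether that overlap lowered the count of Psmd3 was not tested.

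The 6 base ATPases, Psmc1 to Psmc6, form the unfolding ring. All 6 had a positive log2 fold change with a median of 0.42. In 5 the groups did not overlap, with WT iGB6 higher, against 12.2% of all genes tested. By limma 0 of 6 were called, against 6.12%, with 4 higher at an unadjusted p below 0.05, against 12.3%. Psmc1 had 797, 658 and 677 normalized counts in IgHMOG iGBGFP and 958, 1029 and 944 in WT iGB6. The groups did not overlap, with a log2 fold change of 0.46 (SE 0.16, limma adjusted p = 0.115). Psmc3, the most abundant of the ring, had 904, 884 and 818 in IgHMOG iGBGFP and 1264, 1193 and 1044 in WT iGB6 (log2 fold change 0.42, SE 0.16, limma adjusted p = 0.139). The other 4 ranged from 0.29 to 0.45, and Psmc6, at 0.29, was the one with overlapping groups. Psmc3 shares exon sequence with Slc39a13, whose mean of 47.4 normalized counts was far below it.

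Psmd1 and Psmd2 are the large scaffold proteins of the base, and Psmd4 is a ubiquitin receptor. Psmd1 had 696, 540 and 710 normalized counts in IgHMOG iGBGFP and 940, 883 and 920 in WT iGB6, without overlap (log2 fold change 0.51, SE 0.17, limma adjusted p = 0.107). Psmd2 had 1215, 1084 and 1236 in IgHMOG iGBGFP and 1652, 1648 and 1519 in WT iGB6, again without overlap (0.45, SE 0.16, limma adjusted p = 0.118). Psmd4 did not share this pattern: it averaged 1180 ± 78.0 in the IgHMOG iGBGFP and 1230 ± 104 in the WT iGB6 libraries (SD, n = 3 each), with a log2 fold change of 0.06 (limma adjusted p = 0.858). Psmd4 was named after its values were seen. Among all 17 genes, 16 were thus not called, while the 2 scaffolds, 5 of 6 ATPases and 6 of 8 lid genes had groups that did not overlap. Over all genes tested, 12.2% had groups that did not overlap with WT iGB6 higher.

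The core particle moved less. Its 14 tested genes other than the immunoproteasome had a median log2 fold change of 0.16 and 12 were positive. By limma 0 were called, against 6.12% of all genes tested. Of these 14, 1 was higher at an unadjusted p below 0.05, against 12.3% of all genes tested. In 4 of the 14 genes the groups did not overlap, with WT iGB6 higher, against 12.2%. Their sum, with Psma8 included, was 9611, 10903 and 9532 normalized counts in IgHMOG iGBGFP and 10696, 10595 and 11394 in WT iGB6. These ranges overlapped because IgHMOG iGBGFP replicate 2 lay above WT iGB6 replicates 1 and 2. The ratio of the sum of the 17 regulatory particle genes to the whole 20S sum, immunoproteasome genes included, was 0.976, 0.794 and 0.891 in IgHMOG iGBGFP. In WT iGB6 it was 1.14, 1.12 and 1.02, without overlap and with no test. Read against each other within a library, the 2 sums do not depend on how the libraries were scaled.

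**Figure D3:**
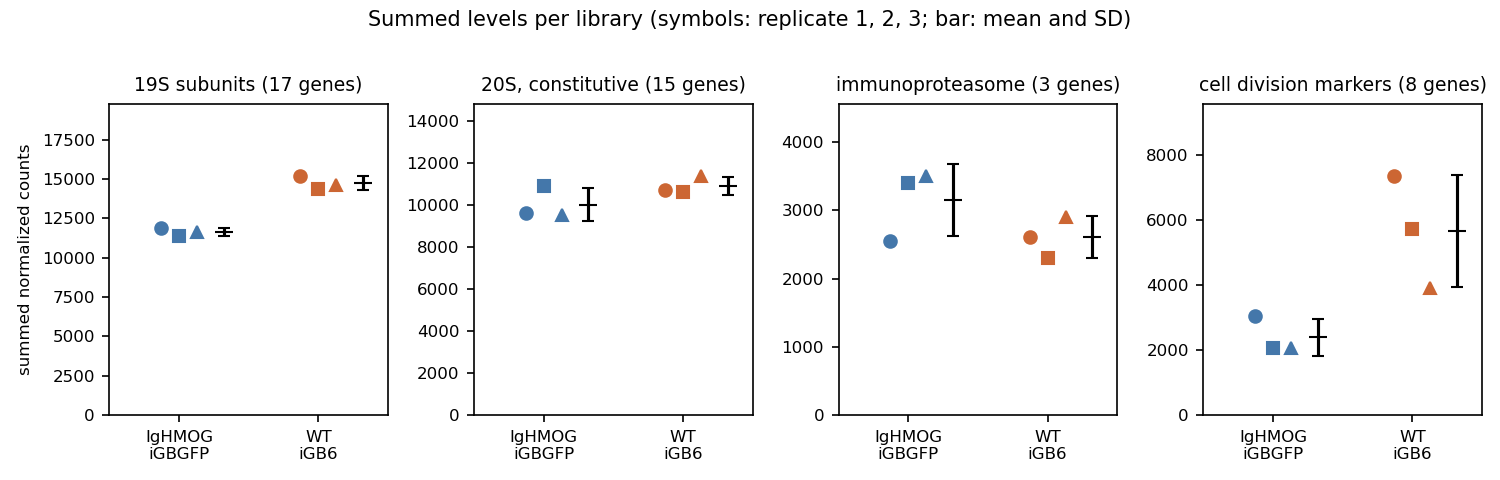
Summed normalized counts (y axis, from 0) of the 19S genes, the constitutive 20S genes, the immunoproteasome genes and the cell division markers in each of the 6 libraries (symbols stand for replicates 1, 2 and 3, the bar for the mean and SD). The 19S sum lies at 11363 to 11869 in IgHMOG iGBGFP and 14389 to 15215 in WT iGB6, the cell division sum also does not overlap, and the ranges of the core and immunoproteasome sums do.

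Of the alpha ring genes, Psma6 had the smallest p. Its normalized counts were 554, 509 and 444 in IgHMOG iGBGFP and 662, 649 and 652 in WT iGB6, without overlap (log2 fold change 0.39, SE 0.16, limma adjusted p = 0.181). Psma7, the most abundant alpha gene, went the other way, with 1414, 1915 and 1770 in IgHMOG iGBGFP and 1337, 1557 and 1453 in WT iGB6. Those groups overlapped (log2 fold change -0.22, SE 0.16, limma adjusted p = 0.432). The 7 alpha genes tested had a median of 0.16. Psma1, Psma3 and Psma6 were the 3 without overlap, against 12.2% of all genes tested with WT iGB6 higher.

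The 4 beta genes without an active site had a median of 0.17 and overlapping groups throughout. Psmb4 had 467, 532 and 477 normalized counts in IgHMOG iGBGFP and 611, 517 and 661 in WT iGB6 (log2 fold change 0.27, SE 0.17, limma adjusted p = 0.376). Psmb3 had 838, 921 and 661 in IgHMOG iGBGFP and 951, 830 and 1055 in WT iGB6 (0.24, SE 0.19, limma adjusted p = 0.478). In both genes WT iGB6 replicate 2 fell inside the IgHMOG iGBGFP range.

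Of the 3 constitutive active-site genes, 0 were called by limma and 0 had an unadjusted p below 0.05. Over all genes tested, 6.12% were called and 12.3% had such a p in each direction. Psmb5 carries the chymotrypsin-like site, Psmb6 the caspase-like site and Psmb7 the trypsin-like site. Psmb5 (chromosome 14, 54614119 to 54618022) had 234, 302 and 232 normalized counts in IgHMOG iGBGFP and 245, 270 and 296 in WT iGB6, with overlapping groups (log2 fold change 0.09, SE 0.19, limma adjusted p = 0.818, 95% interval -0.33 to 0.50). Psmb6 (chromosome 11, 70525367 to 70527858) had 855, 857 and 745 in IgHMOG iGBGFP and 989, 879 and 943 in WT iGB6. It was the one of the 3 without overlap (0.19, SE 0.16, limma adjusted p = 0.491, 95% interval -0.16 to 0.55). Psmb7 (chromosome 2, 38588036 to 38644087) had 388, 435 and 347 in IgHMOG iGBGFP and 381, 416 and 506 in WT iGB6, with overlap (0.15, SE 0.18, limma adjusted p = 0.658, 95% interval -0.26 to 0.56).

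The 3 immunoproteasome genes all had a negative log2 fold change, with a median of -0.24, and 0 of 3 were called by limma or had an unadjusted p below 0.05. Over all genes tested, 6.12% were called and 12.3% were lower at an unadjusted p below 0.05. Psmb8 takes the place of Psmb5 and lies on chromosome 17 from 34197721 to 34201454. Its normalized counts were 1513, 2122 and 2241 in IgHMOG iGBGFP and 1604, 1412 and 1715 in WT iGB6, and the female of IgHMOG iGBGFP lay inside the WT iGB6 range (log2 fold change -0.30, SE 0.18, limma adjusted p = 0.358, 95% interval -0.70 to 0.11). Psmb9 takes the place of Psmb6 and lies on the same chromosome from 34181987 to 34187764, next to the peptide transporter genes Tap1 and Tap2. It had 528, 591 and 533 in IgHMOG iGBGFP and 466, 385 and 559 in WT iGB6, where replicate 3 of WT iGB6 lay inside the IgHMOG iGBGFP range (-0.24, SE 0.19, limma adjusted p = 0.468, 95% interval -0.66 to 0.18). Psmb10 takes the place of Psmb7 and lies on chromosome 8 from 105935735 to 105938444. It had 509, 696 and 737 in IgHMOG iGBGFP and 547, 501 and 633 in WT iGB6, with overlap (-0.20, SE 0.18, limma adjusted p = 0.547, 95% interval -0.60 to 0.21). The exons of Psmb9 overlap those of Tap1 on the opposite strand, and the kit does not keep the strand, so reads there cannot be assigned between them.

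**Figure D4:**
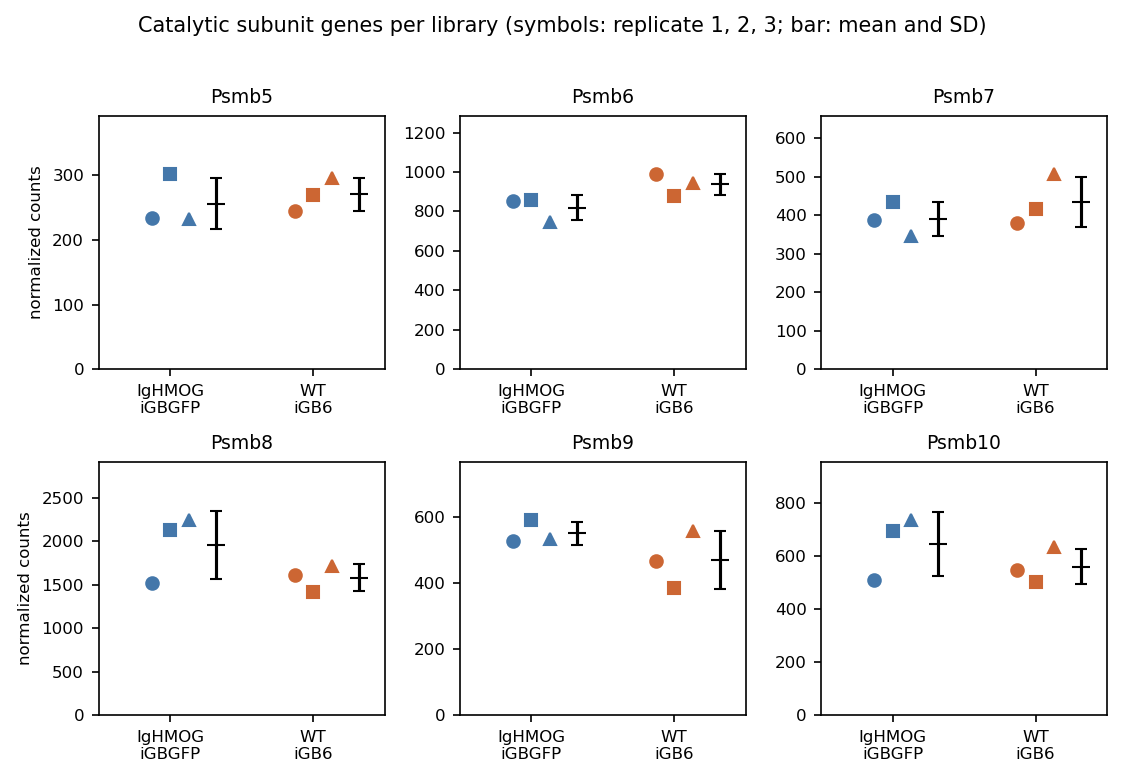
Normalized counts of Psmb5, Psmb6, Psmb7 and of the subunits that replace them, Psmb8, Psmb9 and Psmb10, in each of the 6 libraries (y axis from 0, symbols stand for replicates 1, 2 and 3, the bar for the mean and SD). Of the 6 genes, Psmb6 has groups that do not overlap, and Psmb8 spans 1412 to 2241.

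The inducible genes were expressed in every library. Per kilobase of exon, Psmb8 had 579 ± 116 in the IgHMOG iGBGFP group and 467 ± 45.4 in the WT iGB6 group (SD, n = 3 each), and Psmb5 had 285 ± 44.2 in the IgHMOG iGBGFP group and 301 ± 28 in the WT iGB6 group (SD, n = 3 each). Per kilobase of exon, the mean over the 6 libraries was 523 normalized counts for Psmb8 against 293 for Psmb5, 354 for Psmb10 against 120 for Psmb7, and 139 for Psmb9 against 469 for Psmb6. With the length of the longest CCDS transcript in place of all exons, the means were 1086 for Psmb8, 293 for Psmb5, 461 for Psmb10, 355 for Psmb7, 377 for Psmb9 and 1100 for Psmb6. On either length Psmb8 exceeded Psmb5 and Psmb10 exceeded Psmb7, while Psmb9 lay below Psmb6.

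To compare the RNA of inducible and constitutive subunits, the normalized count of each inducible gene was divided by that of its partner in the same library. This quotient does not depend on library scaling. For the log2 differences and the test, 1 was added to each count first, which leaves a slight dependence on scaling. The Psmb9 to Psmb6 ratio was 0.617, 0.689 and 0.715 in IgHMOG iGBGFP and 0.471, 0.438 and 0.593 in WT iGB6. It was lower in all 3 WT iGB6 libraries, with a log2 difference of -0.44. The exact permutation test, two-sided, gave p = 0.1, and 20 arrangements allow no smaller p. The Psmb8 to Psmb5 ratio was 6.46, 7.03 and 9.66 in IgHMOG iGBGFP and 6.54, 5.23 and 5.80 in WT iGB6, with overlap (log2 difference -0.38, exact permutation p = 0.2). The Psmb10 to Psmb7 ratio was 1.31, 1.60 and 2.12 in IgHMOG iGBGFP and 1.44, 1.20 and 1.25 in WT iGB6, with overlap (-0.35, exact permutation p = 0.2). After adjustment over the 3 pairs each exact permutation p was 0.2, so none passed 0.05 and, with 3 mice a group, none could.

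**Figure D5:**
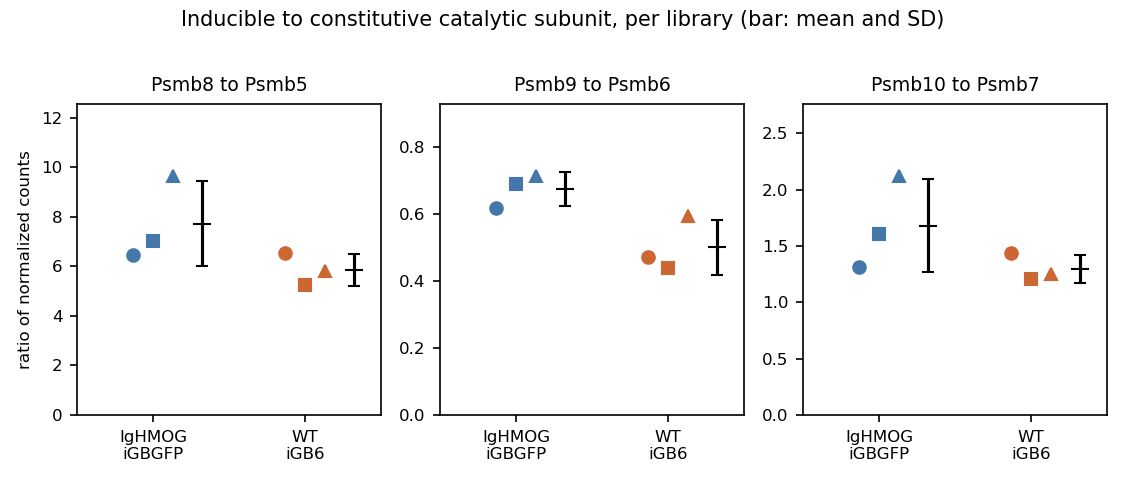
Ratio of each inducible to its constitutive catalytic subunit in each of the 6 libraries (y axis from 0, symbols stand for replicates 1, 2 and 3, the bar for the mean and SD). The Psmb9 to Psmb6 ratios are 0.617 to 0.715 in IgHMOG iGBGFP and 0.438 to 0.593 in WT iGB6, and the other 2 ratios overlap between groups.

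The summed ratio of the 3 inducible to the 3 constitutive genes was 1.73, 2.14 and 2.65 in IgHMOG iGBGFP and 1.62, 1.47 and 1.67 in WT iGB6. The lowest IgHMOG iGBGFP value, that of the female, lay just above the highest WT iGB6 value. Dendritic and basophil markers moved in the same direction as this ratio, with the ranges given above, and their part in it was not tested.

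The activators cap the core in place of the regulatory particle. Psme1 and Psme2, neighbours on chromosome 14, form the interferon-inducible PA28 ring, Psme3 forms a nuclear ring, and Psme4 encodes PA200. The 5 genes had a median log2 fold change of -0.03, all with overlapping groups, and 0 of 5 were called by limma, with 0 at an unadjusted p below 0.05. Over all genes tested, 6.12% were called and 12.3% had such a p in each direction. Psme1 had 1186, 1250 and 1043 normalized counts in IgHMOG iGBGFP and 1224, 993 and 1292 in WT iGB6 (log2 fold change 0.01, SE 0.18, limma adjusted p = 0.983), a value whose sign turned to negative with TMM scaling. Psme4 had 142, 165 and 112 in IgHMOG iGBGFP and 113, 95.5 and 112 in WT iGB6 (-0.37, SE 0.22, limma adjusted p = 0.348). Psme2b, at -0.37, is a near copy of Psme2, and the reads of the 2 may have been split between them. The exons of Psme2b also overlap those of 9930111J21Rik1 on the same strand. That gene had a mean of 203 normalized counts and a log2 fold change of -0.36 (limma adjusted p = 0.395). The part of this overlap in the value for Psme2b was not tested.

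The assembly chaperones help the rings to form. For the base these are Psmd5, Psmd9 and Psmd10, with a median of 0.25 and overlapping groups throughout. Psmd5 had 342, 192 and 276 normalized counts in IgHMOG iGBGFP and 536, 222 and 439 in WT iGB6 (log2 fold change 0.51, SE 0.26, limma adjusted p = 0.269). Replicate 2 was the lowest library in both groups, and without WT iGB6 replicate 2 the log2 fold change was 0.81 (limma adjusted p = 0.0355). Psmd10 had 468, 471 and 375 in IgHMOG iGBGFP and 566, 467 and 532 in WT iGB6 (0.25, SE 0.17, limma adjusted p = 0.401). For the core these are Psmg1 to Psmg4, and all 4 were low. Psmg1 had 32.7, 52.6 and 37.0 in IgHMOG iGBGFP and 65.2, 66.3 and 67.5 in WT iGB6, without overlap (0.72, SE 0.27, limma adjusted p = 0.131, 95% interval 0.13 to 1.31). The other 3 ranged from -0.60 to 0.27 with overlapping groups.

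Psmc3ip, on chromosome 11 from 101091823 to 101095436 (ENSMUSG00000019303), was the other gene that rose. It had 13.3, 8.62 and 5.0 normalized counts in IgHMOG iGBGFP and 35.6, 20.5 and 31.5 in WT iGB6. The groups did not overlap, with means of 8.97 ± 4.16 and 29.2 ± 7.78 (SD, n = 3 each) and a log2 fold change of 1.65 (SE 0.39, limma adjusted p = 0.0404, 95% interval 0.77 to 2.53). The adjusted p was 0.042 with edgeR and 0.03 with DESeq2, and the authors' deposited table gives 0.0479. Its exons overlap those of Mlx on the opposite strand, a gene with a mean of 406 normalized counts (log2 fold change 0.46, limma adjusted p = 0.168). Reads there cannot be assigned between the 2 genes, and cell division genes, with the ranges given above, moved in the same direction. Their part in the value for Psmc3ip was not tested.

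Of 31 further proteasome genes, among them Adrm1, Sem1, shuttle factors, ubiquitin genes and regulators of transcription, 0 were called by limma in either direction, against 6.12% of all genes tested. At an unadjusted p below 0.05, 1 was higher and 2 were lower, against 12.3% of all genes tested in each direction. The median log2 fold change was -0.04. Vcp, the segregase that extracts substrates for the proteasome, had 1189, 864 and 1070 normalized counts in IgHMOG iGBGFP and 1526, 1294 and 1489 in WT iGB6, without overlap (log2 fold change 0.47, SE 0.17, limma adjusted p = 0.121). Ngly1, which deglycosylates substrates and the factor Nfe2l1, had 249, 247 and 228 in IgHMOG iGBGFP and 177, 141 and 179 in WT iGB6, without overlap (-0.55, SE 0.19, limma adjusted p = 0.112). Zfand5 had a log2 fold change of -0.59 (limma adjusted p = 0.115), and the proteasome-bound deubiquitinase Usp14 one of 0.46 (limma adjusted p = 0.208). Ubb, the most abundant ubiquitin gene, averaged 11440.4 ± 1844 in the IgHMOG iGBGFP and 10505 ± 1755 in the WT iGB6 libraries (SD, n = 3 each; log2 fold change -0.12, limma adjusted p = 0.761).

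Of 12 genes of peptide loading on MHC class I, 0 were called by limma, against 6.12% of all genes tested, and the median was -0.22. At an unadjusted p below 0.05, 0 were higher and 1 was lower, against 12.3% of all genes tested in each direction. The list summed to 53564 to 60629 normalized counts in IgHMOG iGBGFP and 38364 to 49338 in WT iGB6, without overlap. That difference rests largely on H2-D1, whose means were 21345 and 13480. Gene by gene, 8 were negative and 4 positive, where 51.6% of all genes tested were positive. In 3 the groups did not overlap, with WT iGB6 lower, against 11.4% of all genes tested. H2-D1, a class I heavy chain, had 21707, 23336 and 18993 in IgHMOG iGBGFP and 15906, 10790 and 13745 in WT iGB6, without overlap (log2 fold change -0.68, SE 0.22, limma adjusted p = 0.093). It was the one gene of the list called with DESeq2 (adjusted p = 0.0181), and the authors' deposited table gives 0.018. H2-K1 had a log2 fold change of -0.36 (limma adjusted p = 0.279), the chaperone Canx 0.30 (0.298) and the trimming enzyme Erap1 0.44 (0.236), the last 2 with overlapping groups. Tap1 and Tap2, the neighbours of Psmb8 and Psmb9, had -0.43 and -0.31 (limma adjusted p = 0.311 and 0.347) and are named for that position.

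Of 8 tested genes of interferon signalling, the pathway that induces the immunoproteasome, 2 fell and 0 rose, all 8 were negative, and the median was -0.31. Of all genes tested, 3.37% were lower. Irf1, a transcription factor that drives Psmb8, Psmb9 and Psmb10, had 864, 1922 and 1844 normalized counts in IgHMOG iGBGFP and 664, 986 and 797 in WT iGB6 (log2 fold change -0.85, SE 0.19, limma adjusted p = 0.0358). The groups overlapped, since the female of IgHMOG iGBGFP lay below WT iGB6 replicate 2. Ifngr2, a chain of the interferon-gamma receptor, had 165, 267 and 185 in IgHMOG iGBGFP and 103, 114 and 103 in WT iGB6, without overlap (-0.91, SE 0.22, limma adjusted p = 0.0409). Irf2 (-0.49, limma adjusted p = 0.086) and Jak2 (-0.63, 0.0968) were not called, nor was Ifngr1, the most abundant of the list (-0.13, 0.771). Neither Irf1 nor Ifngr2 was called with the sex term left out, in the males alone, or without replicate 1, 2 or 3 of IgHMOG iGBGFP or replicate 1 of WT iGB6, and Ifngr2 was not called without WT iGB6 replicate 3.

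The group effect was not seen to differ between the sexes. In the fit with a sex by group term, 0 of 47 genes were called by limma and 0 had an unadjusted p below 0.05, against 0 called and 1.49% at an unadjusted p below 0.05 over all genes tested. With 1 female a group this fit has 2 residual degrees of freedom, and a difference of moderate size could not be detected. For sex itself, 0 of 47 genes were called by limma and 1, Psmd5, had an unadjusted p below 0.05. The share of all genes tested was not taken for this term, so these counts cannot be set beside it. Replicate 1 was the female in both groups, so sex cannot be told apart from other differences of replicate 1.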

How the data were processed

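The files hold 1 table of normalized gene counts with 6 library columns and the authors' deposited table of DESeq2 results. Per the submitters' processing notes, FastQC 0.74, cutadapt 4.4, STAR 2.7.10b, featureCounts 2.0.3 and DESeq2 2.11.40.7 were used, with the builds GRCm38 and mm10. The deposited values are a signal, gene counts divided by a size factor per library as the values show. They were whole multiples of 1 step per library (100% of values within 0.001 of a whole read), so reads were recovered. From the authors' table of comparisons come log2 fold changes and adjusted p-values. It also holds a Wald score per gene, as deposited by the authors, which was not used. Of 43432 gene identifiers, 42462 matched GENCODE M21 (GRCm38) and 970 did not. Per the labels' protocols, cDNA from 8 to 16 ng of RNA was amplified by PCR with a NEBNext low-input kit. Such libraries do not keep the strand and carry no molecular identifiers, so counts are not independent molecules.

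The main test was limma 3.58.1 (R 4.3.3) on log2(normalized count + 1), with group and sex, for the 9923 genes with a mean of at least 10, two-sided, Benjamini-Hochberg over all of them, threshold 0.05. Alternatives were TMM scaling, pseudocounts of 0.5 and 5, no filter, a mean of at least 50, no sex term, a replicate block, edgeR 4.0.16 and DESeq2 1.42.0 on recovered reads, males only, and each library left out. Ratios of paired subunits were compared by exact permutation over 20 arrangements. Scripts were tested on simulated data. No 2 libraries were identical. Genes named in full were the 6 catalytic subunits, every gene called, and in each role group the gene with the smallest p and the most abundant, and from each pathway list up to 4 genes with the smallest p and the most abundant. The rule for the members reads symbols and no values, but the gene family and the lists were chosen with earlier results of these data known. Per kilobase levels used GENCODE exon lengths, and promoter sequences came from RefSeq.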

Additional observations from a re-analysis of the deposited data

How the results depend on the processing

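Over all genes tested, counts of calls moved by more than 1.5 times between settings. Higher genes numbered 273, against 459 without the filter on low values, 6 without the sex term, 254 with edgeR, 422 with DESeq2, 410 in the authors' deposited table, 62 in males only and 3 to 410 with 1 library left out (3 without IgHMOG iGBGFP replicate 2, 410 without WT iGB6 replicate 2). Lower genes numbered 334, against 620 without the filter, 4 without the sex term, 352 with edgeR, 529 with DESeq2, 72 in males only and 1 to 673 with the same libraries left out. The 2 proteasome genes called became 1 at a mean of at least 50, where Psmc3ip is filtered out, 0 without the sex term, 0 in males only, 1 without counting Psmc3ip, and 0 to 3 with 1 library left out: 0 without any 1 of the IgHMOG iGBGFP libraries or without WT iGB6 replicate 1, 1 (Psmd14) without WT iGB6 replicate 3, and 3 (Psmd5 added) without WT iGB6 replicate 2. Leaving out 1 female leaves the other to the sex term, so those fits compare males alone. Across 17 fits the regulatory particle had 14 to 16 positive genes and medians of 0.30 to 0.38, the core without the immunoproteasome 10 to 12 and 0.09 to 0.22, and the immunoproteasome 0 of 3 and medians of -0.35 to -0.08. Not all of these fits are separate estimates. The fits without the sex term and with the replicate block gave the medians of the main fit. Those without a female library gave the medians of males only. Deviations from the group means correlated at 0.48, 0.35 and 0.04 between libraries of the same replicate number. Between libraries of different number the values were -0.51, -0.36, -0.22, -0.16, 0.08 and 0.29. The last was that of IgHMOG iGBGFP replicate 3 with WT iGB6 replicate 2. In the labels, the mouse numbers lie closer together within a replicate number than between replicate numbers. As 1 of the 3 pairs was near 0, the main fit did not take the numbers as pairs, and whether the mice were paired is not settled. The exact permutation of the subunit ratios did not take them as pairs either. Replicate 1 is female and replicates 2 and 3 are male in both groups, so sex cannot be told apart from other differences of replicate 1. The replicate block, which takes the numbers as pairs, gave 435 higher and 566 lower genes, against 273 and 334. It called the same 2 proteasome genes. With TMM scaling, 1 proteasome gene, Psme4, had WT iGB6 below IgHMOG iGBGFP without overlap, against 0. This count, the one without Psmc3ip and the levels by CCDS length were chosen after seeing the data. The MHC class I list gained 1 lower gene (H2-D1) with DESeq2 and 1 in the authors' deposited table, and had 0 to 1 higher with 1 library left out (Pdia3, log2 fold change 0.90 without WT iGB6 replicate 2). The 2 lower interferon genes became 0 without the sex term, 0 in males only and 0 to 2 with 1 library left out. Signs turned for values near 0: Psme1 to -0.020 with TMM, -0.017 with edgeR, -0.0063 with DESeq2, -0.011 in males only and -0.10 to 0.12 with 1 library left out, Psmb5 to -0.025 without IgHMOG iGBGFP replicate 3 (-0.025 to 0.19 with 1 library left out), Ubb to 0.046 without IgHMOG iGBGFP replicate 2 (-0.25 to 0.046), and Ifngr1 to 0.04 and 0.10 without replicate 3 of IgHMOG iGBGFP and of WT iGB6 (-0.29 to 0.10). The sex by group fit without the filter called 1230 of all genes, against 0. The cause of these shifts was not tested. Depth limits Psmc3ip, Psmd3 and the 4 Psmg genes most, whose counts were lowest among the tested genes.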
